A study of Mus musculus with 4 samples.

Results

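The genes described here are 5 members of the Ly6 family of surface protein genes, namely Ly6a, Ly6c1, Ly6c2, Ly6e and Ly6d, out of 24873 genes listed in an RNA-Seq table of mouse brain cells. They were found by their symbols, and all 5 were listed. They were chosen by their measured difference between the groups of these same libraries, so their levels and fold changes are a description and carry no test. The cells came from mice with the genotype Cdh5cre;Mgpflox/flox, in which the VE-cadherin (Cdh5) promoter drives a Cre recombinase in endothelial cells, which the study describes as activated by tamoxifen, and the gene for matrix Gla protein (Mgp) is flanked by its target sites. Both groups carried both alleles. The tamoxifen group was injected with 75 mg/kg tamoxifen on 5 consecutive days, starting at an age of 10 weeks, while the control group was left without it, and cells were taken on day 9. The libraries held no group that received tamoxifen without the floxed gene, so the drug and the deletion cannot be told apart here. Each group had 2 libraries, and a library pooled the cells of 3 mice. The labels name the cells Brain tdTomato+ but give no reporter allele in the genotype, whereas the study describes a sort for CD31 and against CD45, the common leukocyte surface protein.

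Ly6 proteins are small and share a fold held together by disulfide bonds. Most are tethered to the outer face of the membrane by a glycosylphosphatidylinositol (GPI) anchor, and in the mouse many of their genes lie side by side on chromosome 15 as products of gene duplication. Ly6a, also called Sca-1, marks blood stem cells and is made by brain endothelium, as is Ly6c1. Ly6c2 is the Ly6C of monocytes and neutrophils, Ly6e is broadly made and limits some virus infections, and Ly6d marks B-lineage precursors and stratified epithelium.

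The values are normalized counts, the reads on a gene divided by a factor for each library, from 35387438 to 49799321 reads on genes per library. The letters C and A in the table were read as control and tamoxifen, although A stands in no label. Mgp, the targeted gene, stood at 1094 and 1352 normalized counts in the controls and at 945 and 909 after tamoxifen, a log2 difference of -0.39 (SE 0.18, adjusted p = 0.0986 in limma with Benjamini-Hochberg adjustment) that became 0.08 when all libraries were rescaled to equal totals. Mgp thus did not pass the threshold here, and the directions below are those of the labels. All 12 listed endothelial markers were detected in every library and called lower, beside 16.0% of all genes tested. Their summed level was 1135920 and 1131050 in the control libraries but 198421 and 101278 in the tamoxifen libraries. The summed level of 5 pan-leukocyte markers was 637 and 842 in the controls and 9658 and 7080 after tamoxifen. In bulk RNA such as this, fewer cells of a type and less RNA per cell cannot be told apart.

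Ly6c1 and Ly6c2 were the pair in which the family split most plainly, since their coding sequences are nearly identical and their counts moved in opposite directions. The coding sequences of both reference transcripts are 393 bases long, differ at 9 positions and are identical at 97.71%. Their first 240 bases are shown from GENCODE M39, 5′ to 3′ on the coding strand, because they show how little sequence separates the pair. They start at the first codon and come from the minus strand of GRCm39, where the whole coding span is chr15:74917254-74920360 for Ly6c1 and chr15:74980395-74983516 for Ly6c2. Capitals mark the 6 positions that differ within this stretch.
Ly6c1: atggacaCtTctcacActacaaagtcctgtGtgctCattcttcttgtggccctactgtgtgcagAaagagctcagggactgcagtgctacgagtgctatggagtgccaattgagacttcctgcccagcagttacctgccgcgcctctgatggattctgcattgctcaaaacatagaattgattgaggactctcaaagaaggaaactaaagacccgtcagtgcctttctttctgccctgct
Ly6c2: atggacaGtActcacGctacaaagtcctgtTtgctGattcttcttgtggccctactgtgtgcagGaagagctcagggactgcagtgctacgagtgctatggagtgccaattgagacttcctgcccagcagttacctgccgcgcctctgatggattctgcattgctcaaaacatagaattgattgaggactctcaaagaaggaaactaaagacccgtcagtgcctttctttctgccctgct
All 6 differing positions lie toward the 5′ end of the stretch. Of all 100-base windows in the transcripts of Ly6c1, 18.4% also occur in another gene, as do 18.7% of those of Ly6c2. For 50-base windows the shares are 39.9% for Ly6c1 and 34.7% for Ly6c2. How reads in the shared windows were assigned therefore bears on both counts.

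The windows before the transcript starts differed more between the pair. RefSeq's promoter table on GRCm38.p6 held Ly6c1 and Ly6c2 of the 5 members, and the first window of each is shown with that of the neighbouring gene Ly6a2, because the latter moved as Ly6c2 did. Each is the 250 bases before the first transcribed base, on the minus strand, at chr15:75048838-75049087 for Ly6c1, chr15:75111972-75112221 for Ly6c2 and chr15:75135129-75135378 for Ly6a2. Capitals mark the letters AGGAAG, a core bound by ETS factors, searched on both strands.
Ly6c1: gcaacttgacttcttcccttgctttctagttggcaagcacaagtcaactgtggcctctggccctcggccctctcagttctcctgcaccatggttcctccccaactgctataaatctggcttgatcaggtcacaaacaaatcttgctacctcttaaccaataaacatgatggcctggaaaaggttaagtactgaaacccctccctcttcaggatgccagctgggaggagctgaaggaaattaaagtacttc
Ly6c2: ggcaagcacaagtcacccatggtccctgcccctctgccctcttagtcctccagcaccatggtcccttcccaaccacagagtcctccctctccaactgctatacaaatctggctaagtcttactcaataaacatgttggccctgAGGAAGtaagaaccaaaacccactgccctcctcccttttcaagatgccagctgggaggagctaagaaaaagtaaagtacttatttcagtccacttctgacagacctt
Ly6a2: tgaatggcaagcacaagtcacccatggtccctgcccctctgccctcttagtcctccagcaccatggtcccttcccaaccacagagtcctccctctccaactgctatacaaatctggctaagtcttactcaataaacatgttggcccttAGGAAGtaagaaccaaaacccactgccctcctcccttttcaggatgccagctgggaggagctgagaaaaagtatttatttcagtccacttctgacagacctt
The Ly6c2 and Ly6a2 windows were identical at 98.4% of 245 aligned positions, against 75.9% of 216 aligned positions for Ly6c1 and Ly6c2. The cluster genes Ly6f and Ly6g were also higher in both tamoxifen libraries. Their first windows matched that of Ly6c1 at 84.5% of 200 and 83.5% of 206 aligned positions. They matched that of Ly6c2 at 80.8% of 224 and 78% of 173. The second Ly6c1 window matched the first Ly6c2 window at 86% of 93. Whether likeness of windows goes with direction was not tested. The capitals begin 107 bases before the start in Ly6c2 and 102 bases before it in Ly6a2, and the place aligned to them in the Ly6c1 window differs at 3 letters. AGGAAG occurred in 29.5% of the 32851 windows of that length in the table, and a second annotated start of Ly6c1 had 3 matches in its own window. The letters TTCNNNGAA (the GAS element, 7.02% of windows), GAAANNGAA (a core of the interferon response element, 7.13%), CCCNNGGG (an EBF core, 11.8%) and AGATAA (a motif of GATA factors, 9.99%) occurred in none of these windows. A match is a description of letters and not a site.

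Ly6e, Ly6c1 and Ly6a were abundant in the control libraries and several-fold lower in the tamoxifen libraries. Ly6e (chr15:74826860-74847454, plus strand, GRCm39) had 90231 and 112366 normalized counts in the controls and 20284 and 9615 after tamoxifen. Both tamoxifen libraries lay far below both control libraries, and the lower of them was tamoxifen library 2. The log2 fold change was -2.85 (SE 0.37), from means of 101298 ± 15652 in the control group and 14949 ± 7545 in the tamoxifen group (SD, n = 2). It was -1.88 under quantile normalization, the smallest change among the alternatives. Ranked among all listed genes by normalized count, Ly6e stood at 46 and 37 in the controls and at 179 and 521 after tamoxifen.

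Ly6c1 (chr15:74915847-74920686, minus strand) had 65410.2 and 73369.7 normalized counts in the controls and 11009 and 4108 after tamoxifen. The groups again did not overlap, and tamoxifen library 2 was again the lower of the pair. The log2 fold change was -3.36 (SE 0.41), from means of 69390.0 ± 5628 and 7558 ± 4880.0 (SD, n = 2). It was -4.08 without tamoxifen library 1 and -2.65 without tamoxifen library 2.

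Ly6a (chr15:74863840-74869880, minus strand) had 37676 and 45465 normalized counts in the controls and 6682 and 2958 after tamoxifen. The order of the libraries was the same as for Ly6e and Ly6c1. The log2 fold change was -3.22 (SE 0.35), from means of 41571 ± 5508 and 4819.6 ± 2633 (SD, n = 2). It was -3.81 without tamoxifen library 1 and -2.63 without tamoxifen library 2. Ly6a overlaps an antisense lncRNA, Gm28068, which had 39.7 and 17.5 normalized counts in the controls and 8.67 and 6.47 after tamoxifen. The library kit was stranded, but the strand setting of the counting is not given in the sources used here, so reads of Ly6a and of Gm28068 may not be fully separated.

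Ly6c2 and Ly6d ran the other way, from low or barely detected to well above detection. Ly6c2 (chr15:74980003-74988467, minus strand) had 32.9 and 35.0 normalized counts in the controls and 853 and 687 after tamoxifen, from 24, 28, 787 and 956 reads. The control libraries were within a few counts of each other, and both tamoxifen libraries were far above them. The log2 fold change was 4.46 (SE 0.33). Reads summed over each group and divided by its summed library factors gave a ratio of 22.2. Its 95% counting interval was 16.8 to 29.8, which covers counting error only and rests on the authors' scaling. The control libraries, which held the most Ly6c1 reads per library, held the fewest Ly6c2 reads. How reads in the shared windows were divided between Ly6c1 and Ly6c2 was not tested.

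Ly6d (chr15:74633902-74635597, minus strand) had 4.11 and 1.25 normalized counts in the controls, from 3 and 1 reads, and 286 and 178 after tamoxifen, from 264 and 248 reads. Both control values were at or under 3 reads, taken here as the limit of detection, and both tamoxifen values were far above it. The ratio of summed reads over summed library factors was 84.6 (95% counting interval 32.8 to 312). The fitted log2 fold change was 6.06 (SE 0.64) and depends on the pseudocount for a gene this low, with 4.94 at a pseudocount of 5 in place of 1.

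**Figure D1:**
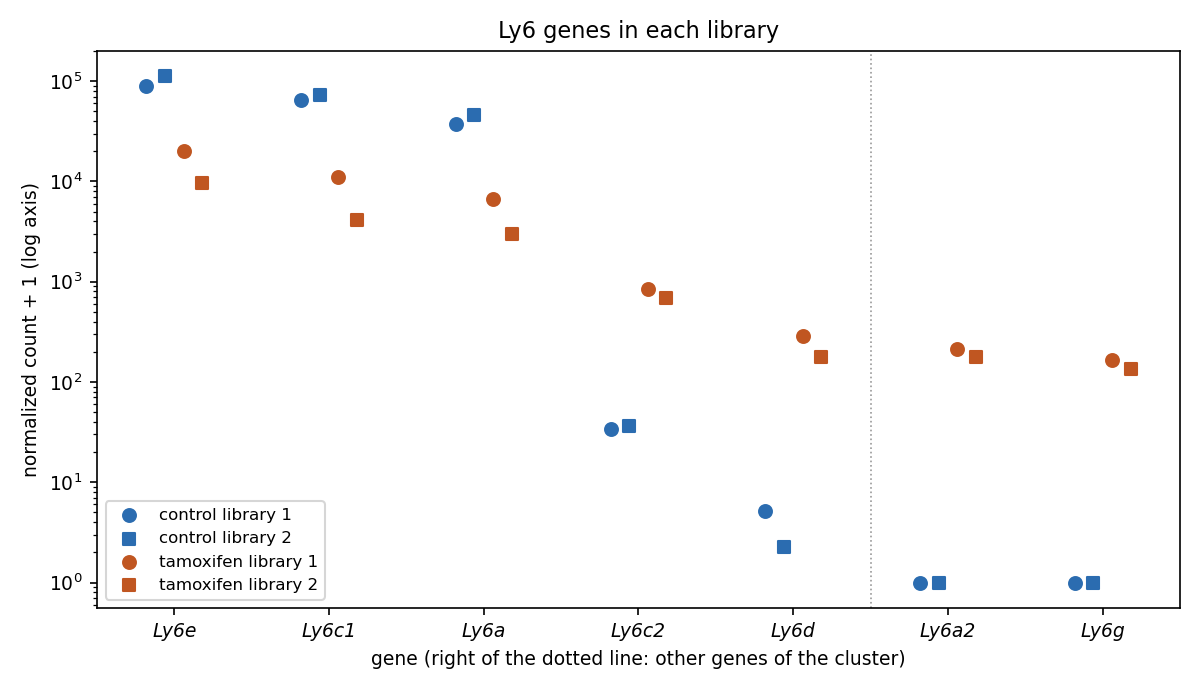
Normalized counts plus 1 (log axis) of the 5 members and of Ly6a2 and Ly6g in each of the 4 libraries, with control libraries in blue and tamoxifen libraries in orange, circles for library 1 and squares for library 2. Ly6e, Ly6c1 and Ly6a sit between 37676 and 112366 in the control libraries and between 2958 and 20284 in the tamoxifen libraries, while the other 4 genes are lower in the control libraries, and Ly6a2 and Ly6g are at 0 counts there.

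In limma, 44.7% of the 20485 genes tested were called (an adjusted p below 0.05 together with a log2 fold change beyond 1 in size), 28.6% called higher and 16.0% called lower. All 5 members were called, 2 higher and 3 lower, and since these contrasts chose them nothing is read from that count. All 5 had control and tamoxifen libraries that did not overlap, as had 82.3% of the genes tested. All 5 passed the filter of a mean of at least 10 normalized counts over the libraries, Ly6d only through its tamoxifen libraries. The median log2 fold change of all genes tested was 0.05, and it was 0.54 after rescaling to equal totals and -0.23 under quantile normalization. The members kept their directions under these scalings, with Ly6e between -2.85 and -1.88 and Ly6c2 between 3.71 and 4.92.

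Levels were compared between genes per kb of transcript, using the median length of each gene's transcripts in the CCDS consensus set, from GENCODE M39. In the control libraries Ly6c1 stood at 76325 and 85612 normalized counts per kb, Ly6e at 62682 and 78059, and Ly6a at 9954 and 12012. By this length Ly6c1 lay above Ly6e within each control library, although their ranges over the libraries overlapped. Ly6a lay below both. By the length of the canonical transcripts Ly6c1 lay above Ly6e in the controls, at 60120 and 67435 per kb against 38577 and 48040.1. Ly6c2 followed at 38.5 and 41.0 and Ly6d at 4.71 and 1.44 per kb. In the tamoxifen libraries Ly6e had 14091 and 6679 normalized counts per kb, Ly6c1 12846 and 4793, Ly6a 1765 and 781, Ly6c2 999 and 805, and Ly6d 328 and 204. There Ly6e and Ly6c1 overlapped, as did Ly6a and Ly6c2, whereas Ly6a lay far above Ly6c2 in both control libraries. The order of Ly6e and Ly6c1 in tamoxifen library 1 turned with the length used, since the canonical transcripts gave 8672 per kb for Ly6e and 10119 for Ly6c1.

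Ratios within a library do not depend on how libraries were scaled. As a percent of Pecam1 (CD31, the endothelial surface protein of the sort), Ly6e stood at 107.8 and 126.5 in the controls and at 126.9 and 107.1 after tamoxifen. The groups overlapped for Ly6e, and the mean log2 ratio to Pecam1 differed by -0.0027 between them. Ly6c1 stood at 78.2% and 82.6% of Pecam1 in the controls and at 68.9% and 45.8% after tamoxifen, a log2 difference of -0.52. Ly6a stood at 45.0% and 51.2% in the controls and at 41.8% and 33.0% after tamoxifen, a log2 difference of -0.37. Ly6c1 and Ly6a were thus lower relative to Pecam1 in both tamoxifen libraries, by far less than their fold changes in normalized counts. Against the summed endothelial list in place of Pecam1 the differences were 0.15 for Ly6e, -0.37 for Ly6c1 and -0.22 for Ly6a, and the groups overlapped for Ly6e and Ly6a. Pecam1 itself had 83681 and 88796 normalized counts in the controls and 15987 and 8973 after tamoxifen. The part of the endothelial markers' fall in the levels of these members was not tested beyond these ratios.

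The 5 members together took 0.377% and 0.450% of the reads on genes in the controls, and 0.102% and 0.0490% after tamoxifen. Within that sum the balance of the members also differed. Ly6c2 was 0.0503% and 0.0478% of Ly6c1 in the controls, and 7.75% and 16.7% after tamoxifen. Ly6e stood at 138% and 153% of Ly6c1 in the controls and at 184% and 234% after tamoxifen. Ly6a was 57.6% and 62.0% of Ly6c1 in the controls and 60.7% and 72.0% after tamoxifen, which overlap. These shares are of normalized counts, not per length, and serve only to compare libraries.

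**Figure D2:**
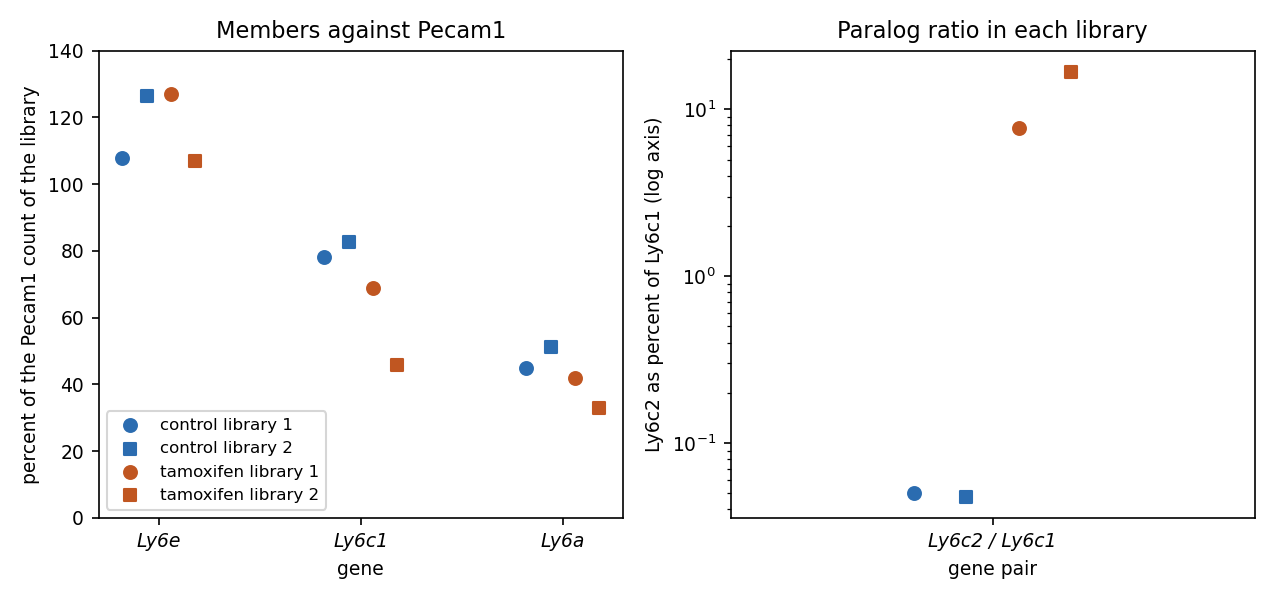
Left, Ly6e, Ly6c1 and Ly6a as a percent of the Pecam1 normalized count of the same library, and right, Ly6c2 as a percent of Ly6c1 (log axis), with control libraries in blue, tamoxifen libraries in orange, circles for library 1 and squares for library 2. Ly6e overlaps between the groups (107.1 to 126.9), Ly6c1 and Ly6a are lower in the tamoxifen libraries, and Ly6c2 moves from 0.0503% and 0.0478% to 7.75% and 16.7% of Ly6c1.

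Other genes of the chromosome 15 cluster were examined from a list of 17, of which 12 were in the table and 7 passed the filter. Of the 7, 3 were called higher and 3 lower, with a median log2 fold change of -0.93, beside 28.6% higher and 16.0% lower of all genes tested. The 3 called higher (Ly6a2, Ly6g and Ly6k) passed the filter only through the tamoxifen libraries, and none was left with the filter at 100, so nothing is read from their count and their values are given without a test. Ly6a2, annotated as a lncRNA gene in GENCODE M39, had 0 reads in both control libraries and 194 and 247 after tamoxifen, at least 49.3-fold higher. It was among the genes the study displayed from these libraries, so its direction is not independent evidence. Ly6g, the antigen that marks neutrophils, likewise had 0 reads in both control libraries and 151 and 186 after tamoxifen, at least 37.8-fold higher. Neither gene was detected in a control library, where 3 reads corresponded to 3.75 to 4.11 normalized counts. Ly6k, expressed in testis, had 1 read in each control library and 19 and 26 in the tamoxifen libraries. Over the summed library factors this was a ratio of 14.9 (95% counting interval 3.88 to 127).

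Among the cluster genes that were lower, Gpihbp1, which carries lipoprotein lipase to the capillary lumen, had 144 and 208 normalized counts in the controls and 54.2 and 31.6 after tamoxifen. Its log2 fold change was -2.03 (SE 0.47, adjusted p = 0.00714 in limma), and it was -2.41 without tamoxifen library 1 (adjusted p = 0.0601 in limma) and -1.66 without tamoxifen library 2 (0.106). Ly6i, at 61.6 and 47.6 in the controls and 20.6 and 4.31 after tamoxifen, changed by -2.36 (SE 0.76, adjusted p = 0.0282 in limma). The Ly6i call was lost without tamoxifen library 2 (-1.35, adjusted p = 0.154 in limma), and with all 4 libraries it was lost without the filter (0.0588), under equal totals (-1.93, 0.0696) and with no trend (0.0649). Ly6h, at 216 and 568 in the controls and 104 and 175 after tamoxifen, changed by -1.37 (SE 0.49, adjusted p = 0.0436 in limma). Without control library 2 the Ly6h value was -0.68 (adjusted p = 0.216 in limma), and it was -1.002 without tamoxifen library 1 (0.373) and -1.74 without tamoxifen library 2 (0.192). With all 4 libraries the Ly6h call was lost at a pseudocount of 0.5 (adjusted p = 0.0508 in limma), without the filter (0.0854), under equal totals (-0.90, 0.189) and with no trend (0.124). Gpihbp1, Ly6i and Ly6h each kept a lower value under these settings, in fits that leave 1 group with a single library where a library is left out. Lynx1, which binds nicotinic receptors in brain, had 1625 and 1852 normalized counts in the controls and 896 and 925 after tamoxifen, a log2 fold change of -0.93 (SE 0.17, adjusted p = 0.00204 in limma) short of the fold limit. Ly6f, Ly6g2, Ly6m, Lypd2 and Psca were below the filter, and Ly6l, Slurp1, Slurp2, Gml and Gml2 were not analysed here.

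Set out along chromosome 15 of GRCm39, some of the directions came in runs. From Ly6e through Ly6i and Ly6a to Ly6c1 the 4 listed genes were lower in both tamoxifen libraries. The next gene of the list, Ly6c2, begins 59316 bases beyond the end of Ly6c1, and from there through Ly6a2, Ly6g, Ly6g2 and Ly6f the 5 listed genes were higher in both tamoxifen libraries. Of the genes below the filter, Ly6g2 had 0 reads in both control libraries and 6 and 12 after tamoxifen, and Ly6f had 1 and 0 in the controls and 19 and 13 after tamoxifen. Outside these runs the directions were mixed. Ly6d and Ly6k, higher in the tamoxifen libraries, lay on the other side of Ly6e. On that side Lynx1 was lower, Psca was higher with few reads, and Ly6m and Lypd2 overlapped between the groups. Beyond Ly6f, Ly6h and Gpihbp1 were lower. This ordering was drawn up after the values had been seen and was not tested.

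**Figure D3:**
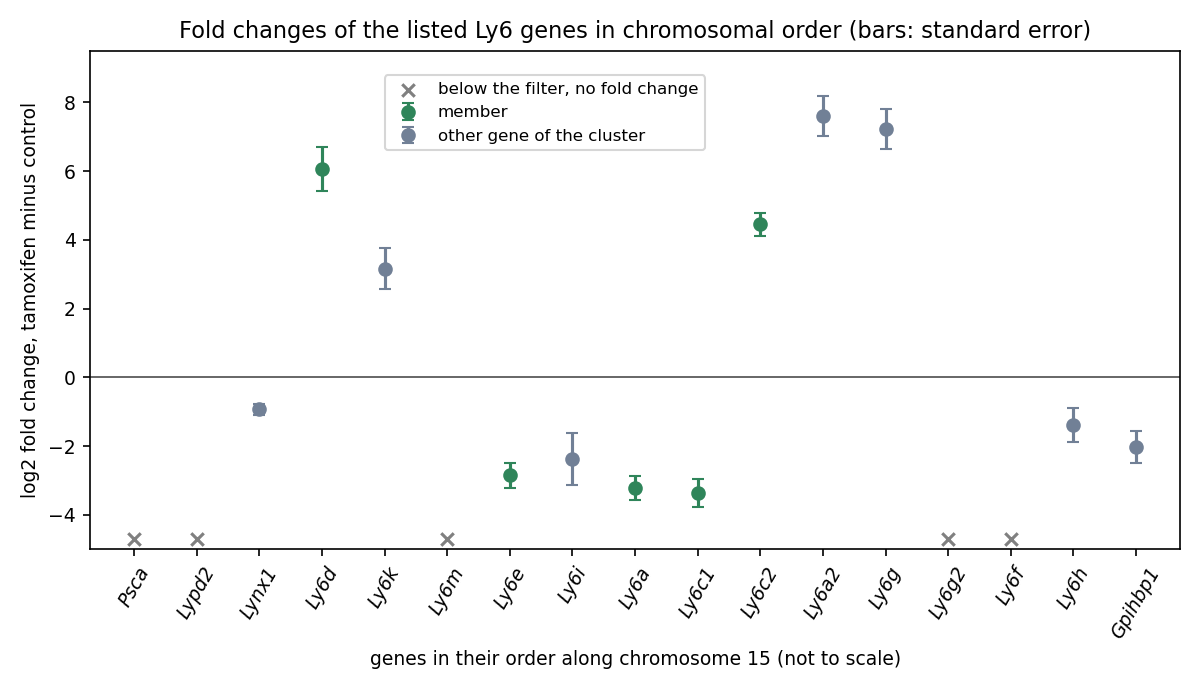
Log2 fold change (tamoxifen minus control) with its standard error for the members (green) and the other tested genes of the cluster list (grey), in their order along chromosome 15 and not to scale, with crosses at the bottom for genes below the filter. Ly6e to Ly6c1 form a run of 4 genes between -3.36 and -2.36, followed by Ly6c2, Ly6a2 and Ly6g at fitted values between 4.46 and 7.60, where those of Ly6a2 and Ly6g depend on the pseudocount because both are at 0 in the controls.

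The members that were higher were set beside markers of the cells known to make them. For Ly6c2 and Ly6g, all 10 listed neutrophil markers were called higher, beside 28.6% of all genes tested. Of these, Mpo, Elane and Cxcr2 passed the filter only through the tamoxifen libraries, so nothing is read from the count. The summed levels of the list were 334 and 314 normalized counts in the controls and 113667 and 84617 after tamoxifen. S100a9, the calgranulin that neutrophils carry in bulk, had 84.9 and 80.1 normalized counts in the controls and 35787 and 28642 after tamoxifen. Of 11 monocyte and macrophage markers, 8 were called higher, of which Ccr2 and Ms4a6c passed the filter only through the tamoxifen libraries. The sum over the 11 was 1199 and 2263 in the controls and 19269 and 14164 after tamoxifen. No neutrophil or monocyte marker was at or under the limit of detection in both control libraries. Ptprc, which encodes the CD45 that the study's sort selected against, had 50.7 and 83.9 normalized counts in the controls and 1423 and 1119 after tamoxifen. In each of these lists tamoxifen library 1 was above tamoxifen library 2, as for Ly6c2, which is not particular to them. The endothelial (198421 and 101278), B-cell precursor, T and NK cell and fibroblast lists had the same order. The squamous epithelium, pericyte and smooth muscle, and neuron and glia lists had the reverse. The part of such cells in the Ly6c2 level was not tested.

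For Ly6d, 10 of 11 tested B-cell precursor markers were called higher, beside 28.6% of all genes tested. Of these, Vpreb3, Igll1, Pax5, Rag1, Rag2 and Il7r passed the filter only through the tamoxifen libraries, so nothing is read from the count. Vpreb3, Igll1, Rag1 and Rag2 were at or under the limit of detection in both control libraries. Cd79b, a chain of the B-cell receptor, had 12.3 and 12.5 normalized counts in the controls and 956 and 720 after tamoxifen. Ebf1, a factor of B-lineage cells that pericytes also make, was the marker called lower, with 8120 and 8062 in the controls and 2705 and 2707 after tamoxifen. Ebf1 made up most of the list's summed level in the controls, and that sum was 8218 and 8172 in the controls and 8187 and 6623 after tamoxifen. Of the squamous epithelium list, 6 genes were in the table, 5 were tested and 2 (Trp63 and Krt17) were called higher. Both passed the filter only through the tamoxifen libraries, and Krt15 and Trp63 were at or under the limit of detection in both control libraries. The 2 genes of highest mean were not called. Perp overlapped between the groups, at 201 and 458 in the controls against 449 and 620. Sfn was lower in both tamoxifen libraries, at 347 and 320 in the controls against 282 and 209. The sums over the 6 were 557 and 797 in the controls against 846 and 1011. Of 10 T and NK cell markers, 5 were tested and all 5 of these were called higher. Of the 5, Cd3e, Cd2, Cd4 and Trac passed the filter only through the tamoxifen libraries. The sums over all 10 were 47.9 and 51.3 in the control libraries against 700 and 498. Of the 10, Cd3e (tested) and Cd3d, Cd3g, Ncr1 and Klrb1c (below the filter) were at or under the limit of detection in both control libraries. The part of these cells in the Ly6d level was not tested.

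Markers of other brain and wall cells were examined as well, beside 28.6% called higher and 16.0% called lower of all genes tested. Of the fibroblast list 9 of 10 genes were called higher, with sums of 2589 and 3591 in the controls and 70676 and 60574 after tamoxifen. Dpt, at or under the limit of detection in both control libraries, passed the filter only through the tamoxifen libraries. Of the neuron and glia list 10 of 12 were called higher, with sums of 12548 and 20226 against 80957 and 178724. Of the pericyte and smooth muscle list 4 of 10 were called higher, and the sums of the groups overlapped, at 26158 and 45747 against 35903 and 67973. Its 2 genes of highest mean, Rgs5 (log2 fold change 0.0094) and Pdgfrb (0.81), were not called. The part of these cells in the members' levels was not tested.

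Interferon induces several Ly6 genes in many cell types, among them Ly6a, Ly6e and Ly6c, and a list of 20 interferon-stimulated genes was examined for that reason. All 20 were tested, 18 were called lower and none higher, against 28.6% higher and 16.0% lower of all genes tested, with a median log2 fold change of -2.17 beside 0.05 for all genes tested. Irf7, a transcription factor of the interferon response, had 7987 and 9420 normalized counts in the controls and 1090.3 and 465 after tamoxifen, a log2 fold change of -3.60 (SE 0.35). Ifit1, which binds viral RNA, had 6430 and 4457 in the controls and 784 and 455 after tamoxifen, a log2 fold change of -3.16 (SE 0.28). Rsad2 (-0.75) and Mx1 (-0.11) were not called. The list was lower in the same libraries in which the endothelial markers were lower, and the part of either in the levels of Ly6a, Ly6c1 and Ly6e was not tested.

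Of the enzymes that build and attach GPI anchors, all 28 in the table were tested and 26 were not called, with a median log2 fold change of -0.22. In this list 1 was called higher and 1 lower, beside 28.6% higher and 16.0% lower of all genes tested. The counts of the list depended on the scaling, with 6 higher after rescaling to equal totals and 8 lower under quantile normalization. Pigs, a subunit of the transamidase that attaches the anchor, was called higher, with 1522 and 1537 normalized counts in the controls and 3068 and 3615 after tamoxifen (log2 fold change 1.12, SE 0.16). Pigc, of the enzyme of the first step, was called lower, with 1615 and 1824 in the controls and 733 and 724 after tamoxifen (-1.24, SE 0.17).

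Of genes with the same protein fold outside chromosome 15, 9 were tested, 3 were called higher and 1 lower, with a median log2 fold change of -0.15, beside 28.6% higher and 16.0% lower of all genes tested. Cd177 and Ly6g6e, of those called higher, passed the filter only through the tamoxifen libraries. Cd59a, an inhibitor of complement, had 5272 and 6209 normalized counts in the controls and 1103 and 733 after tamoxifen, a log2 fold change of -2.67 (SE 0.22). Cd177, a surface protein of neutrophils, had 8.22 and 5.01 in the controls and 2208 and 1413 after tamoxifen, a log2 fold change of 7.89 (SE 0.43). Lypd6, which takes part in Wnt signalling, had 8.22 and 20.0 in the controls and 133 and 321 after tamoxifen (3.90, SE 0.64). Unlike Ly6c2 and Cd177, Lypd6 was higher in tamoxifen library 2 than in tamoxifen library 1.

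**Figure D4:**
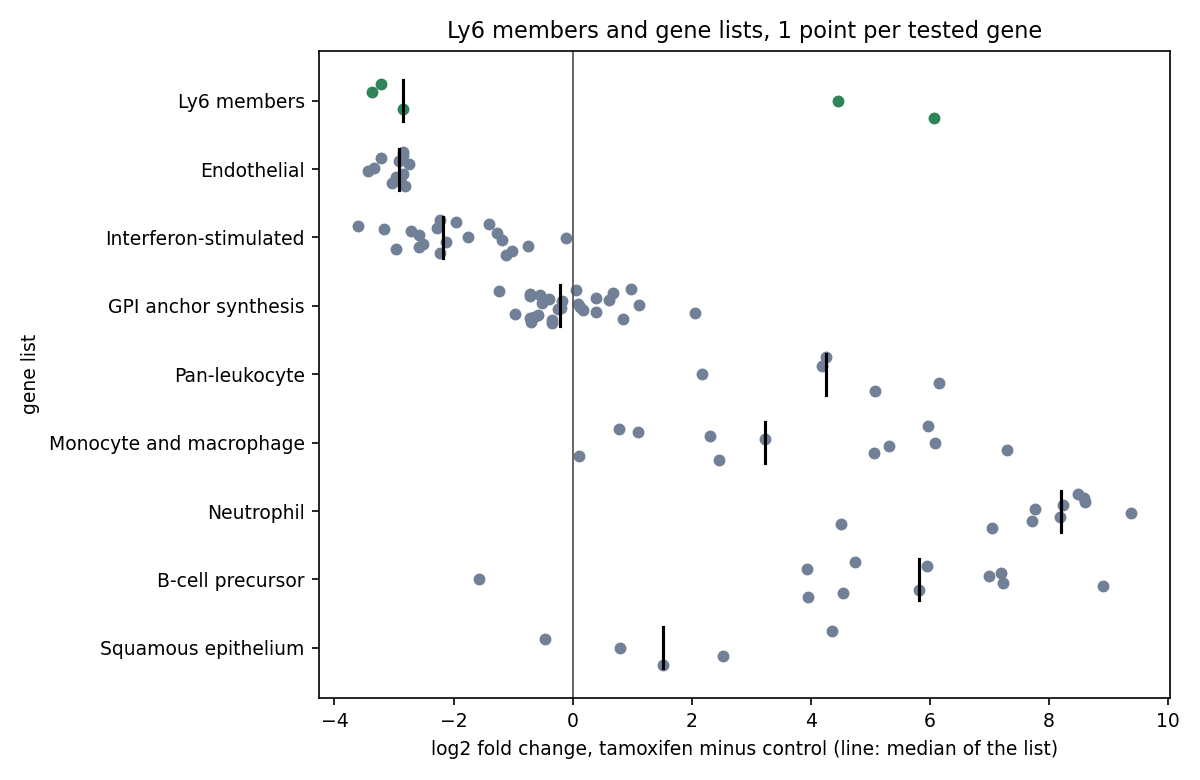
Log2 fold changes (tamoxifen minus control) of the 5 members (green) and of the tested genes of each list (grey), 1 point per gene, with a vertical line at the median of the list. The members fall into a group at -3.36 to -2.85, beside the endothelial list with its median of -2.91, and a group at 4.46 and 6.06, within the spans of the pan-leukocyte, monocyte and macrophage, and B-cell precursor lists and of the fibroblast list, which is not drawn.

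The genes whose pattern over the 4 libraries was most like that of each member were sought among 13668 genes whose mean reached 100 normalized counts, by the root mean square difference of log2 values centred on each gene's mean. For Ly6e the nearest were Erg (0.0438), an endothelial transcription factor, and Ramp2 (0.0442), a receptor partner of adrenomedullin. For Ly6a they were Pdgfb (0.0352), the growth factor that recruits pericytes, and Pltp (0.0507), a phospholipid transfer protein, and for Ly6c1 they were Ndrg1 (0.0585) and again Pltp (0.0760). For Ly6c2 they were Ptgr1 (0.0451), a reductase of prostaglandin breakdown, and Col12a1 (0.0615), a fibril-associated collagen. For Ly6d they were Blk (0.103), a kinase of B-lineage cells, and Myb (0.186), a factor of blood precursors. Ptgr1, Blk and Myb reached a mean of 100 only through their tamoxifen libraries. Col12a1 stood close to it in the controls, at 97.3 and 100.1. Nothing is read from the neighbours of Ly6c2 and Ly6d. With 4 libraries many genes share a pattern, with 216 genes within 0.25 of Ly6e and 139 within 0.25 of Ly6a, against 9 for Ly6d.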

How the data were processed

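RNA-Seq libraries of 2 control and 2 tamoxifen samples were analysed. The submitters' processing notes name STAR 2.7.10a, DESeq2 1.36.0 and GRCm39. The annotation and strand setting of the counting are not given in the sources used here. The deposited table gives a signal for each gene, namely counts of reads that the authors scaled with 1 factor for each library. Taking the smallest step of a column as 1 read turned 100% of the values into whole reads, within 0.01. The table held 0 other columns of values. Nothing says which table column holds which sample of a group. The study describes each library as its own pool of mice, so p-values measure the spread between such pools.

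limma 3.58.1 in R 4.3.3 (lmFit, eBayes with a trend) was fitted to log2(normalized count + 1), using genes whose mean reached 10, with Benjamini-Hochberg adjustment over all of them. Fold changes are on that scale. The script was tested on simulated data. Results were recomputed with a pseudocount of 0.5 or 5, without the filter, with a filter at 100, equal totals, quantile normalization, no trend, a replicate block, adjusted p alone, each library left out, and edgeR 4.0.16 (quasi-likelihood) and DESeq2 1.42.0 on recovered reads, which called 5864 and 5694 genes higher and 3377 and 3045 lower.

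Members and lists were chosen with earlier results of these data known. The genes named are the members, the cluster genes, Mgp, Pecam1, Ptprc and 2 genes nearest each member. Also named are the 2 largest called rises and falls of each family, GPI and interferon list at a mean of at least 100. Of the cell lists, the 2 genes of highest mean are named for B-cell precursors, squamous epithelium and pericytes, and the first of them for neutrophils. That rule was not followed for the other cell lists, which are given by counts and sums. Rsad2, Mx1, Ly6g6e, Krt17 and the markers named for the filter or for lying at or under 3 reads were picked after their values were seen. Gene positions, lengths and shared windows came from GENCODE M39 and promoters from RefSeq.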

Additional observations from a re-analysis of the deposited data

How the results depend on the processing

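All 5 members, which these libraries chose, kept their direction under every alternative run, which is no independent support. Log2 fold changes ranged from -3.81 to -2.60 for Ly6a, -4.08 to -2.58 for Ly6c1, -3.39 to -1.88 for Ly6e, 3.71 to 4.92 for Ly6c2 and 4.65 to 6.66 for Ly6d. Of 5867 genes called higher and 3284 lower, equal totals gave 1815 lower, quantile normalization 5509 lower, the adjusted p alone 5228 lower and the filter at 100 gave 3540 higher. The called genes were 64.1% higher, 80.3% under equal totals and 45.6% under quantile normalization. Leaving out a library gave 3073 to 6466 higher and 1906 to 3535 lower, the lowest counts being without tamoxifen library 2. A library left alone in its group was assumed to vary like the other group. For the cluster list, 6 were higher and 1 lower without the filter, 0 higher with the filter at 100, 1 lower under equal totals and with no trend, and 0 to 4 lower with a library left out. For the genes of the same fold elsewhere, 5 were higher without the filter, and 4 were lower under quantile normalization and 2 with no trend. For the interferon-stimulated list, 18 were lower in the main fit. That count was 13 under equal totals, 15 with no trend, 17 under quantile normalization and 19 by the adjusted p alone. For GPI anchor genes, 2 were higher at a pseudocount of 5, 6 higher and 0 lower under equal totals, 8 lower under quantile normalization, 4 higher and 7 lower by the adjusted p alone, and 1 to 4 higher and 1 to 2 lower with a library left out. The log2 fold change of Mgp turned to 0.079 under equal totals. With the replicate number as a block, 6064 genes were called higher and 3461 lower, and 2 GPI anchor genes higher. The correlation of deviations between libraries of the same number was 0.0251 over all genes tested. Since the 2 libraries of a group deviate as mirror images, this value cannot decide whether the numbers pair libraries. With 2 libraries a group, precision is limited by their number, and Ly6d and Ly6k rest on 1 to 3 reads in the control libraries. The causes of these changes were not tested.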
